A study of Mus musculus with 6 samples.

Results

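The genes described here encode surface antigens shared by mesothelium, urothelium and tumours of the gut and pancreas, together with 1 transcription factor of mesothelium. They are Msln, Psca, Ly6d, the 5 uroplakin genes Upk1a, Upk1b, Upk2, Upk3a and Upk3b, and Wt1, so 9 of the 55401 gene IDs in the count tables. They were chosen by symbol with the difference between the groups already known, so their levels and differences are given as a description, without a test. Polyadenylated RNA was sequenced from primary mouse cholangiocytes, the epithelium of bile ducts. The donors were wild-type (WT) animals or a mouse model labelled PLD, read here as polycystic liver disease, both 3 months after tamoxifen. Each group had 3 libraries. The labels name neither the targeted gene, the Cre driver, the strain nor the age of the animals, and do not say whether each library is 1 animal, so a p-value reflects only the spread among these libraries, which may be technical. Cells were taken from digested biliary trees with beads against the epithelial surface protein EpCAM.

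Mesothelin, the product of Msln, is a surface glycoprotein held by a glycosylphosphatidylinositol (GPI) lipid anchor. It is found on mesothelial cells, the flat cells that cover the liver and line the body cavities, binds the mucin MUC16, and is abundant on pancreatic, ovarian and bile duct cancers. Prostate stem cell antigen (Psca) and Ly6d are small GPI-anchored proteins of the LY6 family, Psca known from prostate, bladder, stomach and pancreatic tumours and Ly6d from keratinocytes and urothelium. Uroplakins form the rigid plaques on the luminal face of bladder umbrella cells, where the tetraspanin UPIa (Upk1a) pairs with UPII (Upk2) and the tetraspanin UPIb (Upk1b) with UPIIIa (Upk3a). Upk3b, a relative of Upk3a, and Upk1b are also used as mesothelial markers. Wt1 encodes a zinc finger transcription factor of mesothelium and kidney podocytes and serves as the mesothelial control.

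The libraries held 15768561 to 16710548 counted reads, so 3 reads, taken as the floor, correspond to 0.180 to 0.190 CPM (read counts scaled to a common library size). Libraries of a group correlated across genes with Pearson r of 0.971 to 0.991 on the log2 CPM scale. Both libraries numbered 1 stood apart from the others of their group: chi-square per degree of freedom was 55.5 and 63.9 between PLD replicate 1 and the other PLD libraries, against 9.68 between those, and 46.7 and 28.4 for WT replicate 1, against 17.7. In WT replicate 1, 40 of 15334 tested genes lay at least 8-fold above both other WT libraries, against 3 in WT replicate 2 and 1 in WT replicate 3, and Ly6d was among the 40. Of 13 cholangiocyte markers, 9 were higher in PLD, 2 were lower and 2 did not pass the edgeR test. Over all tested genes, 27.0% were higher and 28.4% lower. Epcam had 254 to 417 CPM in WT and 919 to 1360 in PLD, and Krt19 292 to 551 and 3550 to 4240. Krt7 had 69.0 to 96.2 CPM in WT and 979 to 1070 in PLD. The 2 lower genes were the secretin receptor gene Sctr, with 0, 1 and 4 reads in PLD against 34 to 40 in WT, and Cftr. Cftr had 179 to 329 reads in PLD and 805 to 1953 in WT. The summed level of 12 endothelial markers was 5710 to 7580 CPM in WT and 465 to 816 CPM in PLD, and that of 13 fibroblast, stellate and muscle markers 8860 to 13900 and 1850 to 4790 CPM. In such bulk samples, fewer cells of a type and less RNA per cell cannot be told apart.

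Upstream sequence was at hand for 3 of the 9 genes, Upk1a, Upk3a and Upk3b. The 2 uroplakin III genes are shown because 1 was read in every library and the other had 1 read in all. The lines give the 250 bases before the RefSeq start on GRCm38.p6, 5′ to 3′ on the gene's strand, with motif matches in capitals. The Upk3a window is chr15:85016891-85017140 and the Upk3b window chr5:136038246-136038495, both on the plus strand, and both starts equal those of the gene models in the files.
Upk3a: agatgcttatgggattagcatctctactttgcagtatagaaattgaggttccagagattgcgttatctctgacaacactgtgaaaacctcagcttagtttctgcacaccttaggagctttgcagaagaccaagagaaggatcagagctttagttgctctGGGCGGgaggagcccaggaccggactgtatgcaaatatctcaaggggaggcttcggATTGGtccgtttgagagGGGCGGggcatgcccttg
Upk3b: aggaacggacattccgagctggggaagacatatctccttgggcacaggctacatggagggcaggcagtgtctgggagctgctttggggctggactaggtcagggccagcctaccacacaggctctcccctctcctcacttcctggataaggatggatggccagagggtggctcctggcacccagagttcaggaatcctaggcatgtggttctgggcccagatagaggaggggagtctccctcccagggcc
Both strands were searched for the TATA box TATAAA, the CCAAT box, the GC box GGGCGG and the AP-1 motif TGANTCA, and no matches overlapped. The Upk3a window held 2 GC boxes, found in 32.7% of 32851 promoter windows of this length, and 1 CCAAT, found in 33.8%. Upk3b and Upk1a held no match to any of these 4 motifs, and the TATA box occurred in 12.4% and the AP-1 motif in 6.75% of all windows. The Upk1a window, chr7:30612735-30612984 on the minus strand, overlaps its gene model in the files, which reaches 30612847. Its RefSeq start thus differs from that of the model.

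Msln had the most reads of the 9 genes in each PLD library, while in WT replicate 1 Ly6d had more (ENSMUSG00000063011.7, mm10 chromosome 17, 25748613 to 25754378, minus strand). WT replicates 1 to 3 had 296, 312 and 253 reads and the PLD replicates 16778, 14910 and 12296. The PLD libraries were all far above the WT libraries, and neither group varied much inside itself. The mean went from 17.2 ± 1.41 to 934 ± 210 CPM (SD, n = 3 libraries each), a 54.4-fold difference and a log2 fold change of 5.77 ± 0.21 (standard error, SE). Relative to the bead target, Msln had 3.75 to 7.24 reads per 100 Epcam reads in WT and 80.3 to 93.5 in PLD. Per 100 reads of the duct keratin gene Krt19 it had 3.17 to 6.29 and 20.8 to 27.3. The groups thus stayed apart against both epithelial denominators, by less against Krt19, which itself rose by 3.26 on the log2 scale (edgeR adjusted p = 8.39e-05).

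**Figure D1:**
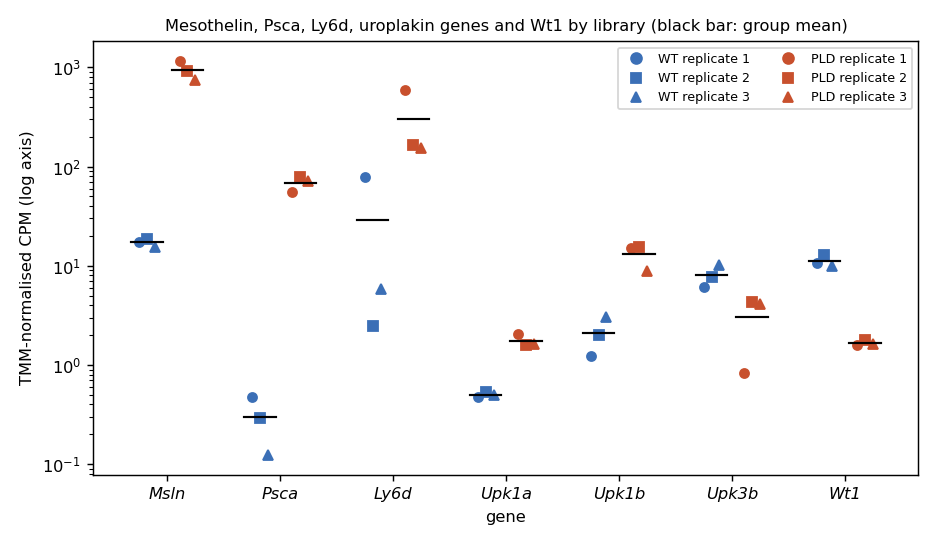
TMM-normalised CPM (log axis) of the 7 genes with more than 1 read, in each WT (blue) and PLD (orange) library, with marker shapes for replicates and black bars for group means. Msln lies between 15.6 and 18.4 CPM in WT and between 738.3 and 1156 CPM in PLD, and Ly6d of WT replicate 1 lies far above the other WT libraries.

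Over the 7 genes tested, PLD lay above WT in every library for 5 and below WT in every library for 2. Among all 15334 tested genes the groups did not overlap for 66.2%, of which PLD lay above WT for 33.0% and below for 33.2% of the tested genes, and since this difference was known when the genes were chosen, nothing is read from the counts. Psca and Upk1a passed the count filter through the PLD libraries alone. Upk2 and Upk3a did not pass it.

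The mesothelin relatives were scarce. Mslnl, a mesothelin-like gene on the opposite strand whose end lies 283 bp from the end of Msln, had 4, 6 and 11 reads in WT and 30, 25 and 40 in PLD. It rose by 2.23 ± 0.42 on the log2 scale (edgeR adjusted p = 0.00338). Strc and Otoa, which encode inner ear proteins of the same family, had at most 7 and 4 reads in a library and were not tested. Narfl, the next tested gene on the other side of Msln, rose by 0.70 ± 0.20 (edgeR adjusted p = 0.0199). Both neighbours of Msln were thus higher in PLD, by far less than the 5.77 of Msln. In the annotation no gene model overlapped any of the 9 genes, although the counting used no strand.

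Muc16, the mucin that mesothelin binds, went the other way. It had 35, 41 and 57 reads in WT and 0, 2 and 5 in PLD, and fell by 4.12 ± 0.63 on the log2 scale (edgeR adjusted p = 0.00131).

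Wt1 (ENSMUSG00000016458.15, chromosome 2, 105126529 to 105173616, plus strand) had 182, 218 and 162 reads in WT and 23, 29 and 27 in PLD. All PLD libraries were below all WT libraries, and the PLD values were close together. The mean was 11.2 ± 1.48 CPM in WT and 1.66 ± 0.098 CPM in PLD (log2 fold change -2.75 ± 0.20). Per 100 Wt1 reads, the WT libraries had 143 to 163 Msln reads and the PLD libraries 45500 to 72900. In WT the ratio of Msln to its mesothelial control was therefore nearly constant, and in PLD the 2 genes were far apart.

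The other mesothelial genes split in the same manner. Of 14 listed, 11 were tested, and by edgeR's quasi-likelihood test 6 rose, 5 fell and 0 did not pass, with a median log2 fold change of 0.68. Over all genes tested 55.4% passed (27.0% higher and 28.4% lower) and the median was 0.01. Genes that fell with Wt1 were Rspo1, a secreted Wnt enhancer (-4.24 ± 0.46, edgeR adjusted p = 2.98e-04), Muc16, Gpm6a, a neuronal and mesothelial membrane protein (-2.59 ± 0.40), the lubricin gene Prg4 (-2.25 ± 0.48) and Lrrn4 (-1.69 ± 0.36). Genes that rose with Msln were the retinoic acid synthesis enzyme gene Aldh1a2 (2.44 ± 0.34), Tmem151a (14.9 ± 5.71 CPM in WT, 59.7 ± 8.66 in PLD), Nkain4 (1.83 ± 0.25), the podoplanin gene Pdpn (1.63 ± 0.14), the matrix gene Efemp1 (1.38 ± 0.11, edgeR adjusted p = 9.63e-05) and Ildr2 (0.68 ± 0.18). The calretinin gene Calb2 had 0 reads in all 6 libraries, and Bnc1 reads numbered 9 to 14 in WT libraries and 0 to 4 in PLD libraries. The summed level of the list was 395 to 485 CPM in WT and 774 to 922 CPM in PLD, and Efemp1 made up the largest part. Aldh1a2 was lowest in PLD replicate 1, with 909 reads against 2718 and 2460. Which cells gave these reads was not tested.

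**Figure D2:**
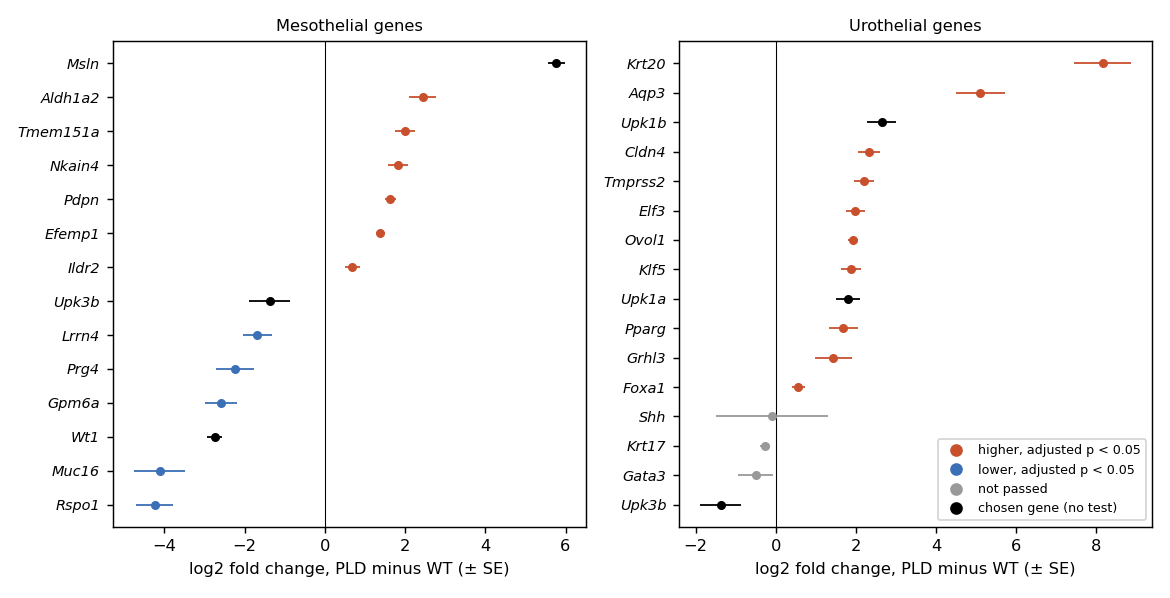
Log2 fold change, PLD minus WT, with SE, of the tested mesothelial genes (left) and urothelial genes (right). Orange and blue genes passed the edgeR test, grey genes did not, and the chosen genes (black) carry no test. Mesothelial genes lie on both sides of 0, from Rspo1 at -4.24 to Aldh1a2 at 2.44, while the urothelial genes that passed are all above 0.

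Psca (ENSMUSG00000022598.6, chromosome 15, 74714839 to 74717069, plus strand) was close to the floor in WT, with 8, 5 and 2 reads, and had 806, 1289 and 1204 reads in PLD. The groups were wide apart, and PLD replicate 1 was the lowest PLD library. Psca had 15 reads over the WT libraries and 3299 over the PLD libraries, a ratio of 219 per total reads. Its mean was 0.297 ± 0.174 CPM in WT and 68.8 ± 11.9 CPM in PLD (log2 fold change 7.81 ± 0.31). Without both libraries numbered 1 it was 8.43. Per 100 Epcam reads the WT libraries had 0.0297 to 0.12 Psca reads and the PLD libraries 4.07 to 8.08.

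Ly6d (ENSMUSG00000034634.7, chromosome 15, 74762056 to 74763620, minus strand) varied most within the groups. WT replicates 1 to 3 had 1317, 42 and 95 reads, and PLD replicates 1 to 3 had 8489, 2722 and 2578. Replicate 1 was thus the highest library of both groups, although the lowest PLD library still lay above the highest WT library. The mean was 28.7 ± 42.5 CPM in WT and 302 ± 245 CPM in PLD, and the log2 fold change was 3.39 ± 1.21. It was 6.18 without WT replicate 1, 2.49 without PLD replicate 1 and 5.27 without both. Per 100 Epcam reads, WT replicate 1 had 19.7 Ly6d reads, more than PLD replicates 2 and 3 with 17.1 and 16.8, while the other WT libraries had 0.975 and 1.41. Per 100 Krt19 reads, WT replicate 1 had 14.1 Ly6d reads, more than PLD replicates 1 to 3 with 13.8, 4.14 and 4.36. WT replicates 2 and 3 had 0.847 and 1.51. The groups therefore overlapped on both scales.

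Other listed genes shared this single high WT library. The signalling ligand gene Shh had 239 reads in WT replicate 1 and 1 and 0 in the other WT libraries, the membrane mucin gene Muc4 had 840 against 5 and 23, and the tetraspanin gene Tspan1 87 against 6 and 5. Their PLD libraries had 52 to 89 reads of Shh, 36 to 179 of Muc4 and 18 to 83 of Tspan1. Shh did not pass the test (-0.09 ± 1.39, edgeR adjusted p = 0.961), and without WT replicate 1 its log2 fold change was 6.88 (adjusted p = 4.96e-04). What set WT replicate 1 apart was not tested.

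Psca and Ly6d lie in the same LY6 gene cluster, 44987 bp apart with 6 gene models between them. Next to Psca, the tested genes were Jrk, which did not pass (0.43 ± 0.48, edgeR adjusted p = 0.468), and Them6, which rose by 1.49 ± 0.17 (adjusted p = 3.9e-04). Beside Ly6d, the nicotinic receptor modulator gene Lynx1 rose by 0.82 ± 0.12 (edgeR adjusted p = 0.00115) and 2010109I03Rik by 3.78 ± 1.32 (adjusted p = 0.0412). Slurp1, Slurp2 and Lypd2, which lie between Psca and Lynx1, had at most 10 reads in a library. High Psca and Ly6d reads in PLD therefore stood among neighbours with few reads or with smaller differences, apart from 2010109I03Rik.

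Of 42 listed genes of the LY6 and urokinase receptor domain family, 37 were matched in the tables and 18 tested. In this list 10 rose, 4 fell and 4 did not pass, with a median of 0.91. The share that passed was 77.8%, beside 55.4% over all genes (27.0% higher and 28.4% lower). Among the 10, Lypd8, Lypd5, Spaca4 and Ly6c2 were under the count filter in every WT library. They entered the test through PLD alone, so their direction was fixed by the filter and nothing is read from it. Plaur, the urokinase receptor gene, had WT libraries of 6248 to 11681 reads and PLD libraries of 32323 to 43193, and rose by 2.11 ± 0.27 (edgeR adjusted p = 6.37e-04). The scarce genes Lypd8, a gut barrier protein (3.71 ± 0.65), Lypd5 (3.56 ± 0.78), Spaca4 (3.53 ± 0.65) and Lypd3 (2.30 ± 0.49) rose as well, with 13 to 52 reads in the PLD libraries. Gpihbp1, the lipase anchor of capillary endothelium, fell by 3.15 ± 0.23 (adjusted p = 6.74e-05), and the complement inhibitor gene Cd59a by 2.36 ± 0.13 (adjusted p = 3.30e-05). The summed endothelial markers were lower in the same PLD libraries, and their part in these values was not tested. Ly6e, with 16990 to 19700 reads in every library, did not pass (0.21 ± 0.13). Lypd6 did not pass either (0.83 ± 0.51, adjusted p = 0.195), and did so without WT replicate 1 (1.73, adjusted p = 0.00363). With a filter of 1 CPM in 3 libraries, which drops scarce genes, 5 genes of the list rose. Values of Ly6a, Ly6c1, Ly6c2 and Cd59a are uncertain, since reads that fit several near-identical copies may be lost.

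**Figure D3:**
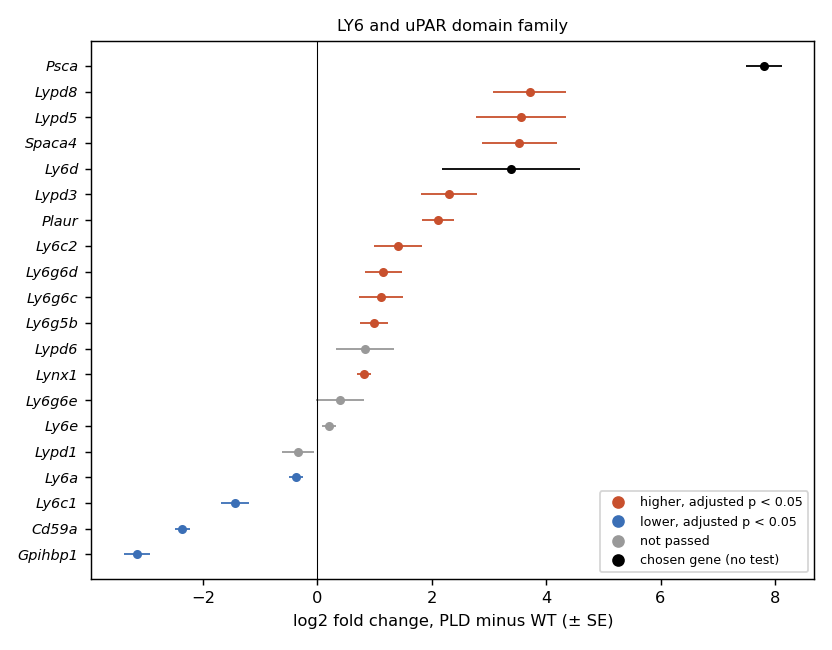
Log2 fold change, PLD minus WT, with SE, of the 18 tested genes of the LY6 and urokinase receptor domain family, coloured by the edgeR test, with Psca and Ly6d in black and without a test. These 18 genes span from Gpihbp1 at -3.15 to Lypd8 at 3.71, and Psca lies beyond them at 7.81.

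Among the uroplakin genes, both tetraspanin genes were higher in PLD. Upk1b (ENSMUSG00000049436.5, chromosome 16, 38773184 to 38800328, minus strand) had 21, 34 and 49 reads in WT and 218, 256 and 147 in PLD. The groups did not overlap. The mean was 2.09 ± 0.897 CPM in WT and 13.2 ± 3.76 CPM in PLD (log2 fold change 2.65 ± 0.36). Per 100 Epcam reads, the WT libraries had 0.314 to 0.789 Upk1b reads and the PLD libraries 0.96 to 1.61, so the groups stayed apart by a narrow margin. Per 100 Krt19 reads they overlapped, with 0.225 to 0.776 and 0.248 to 0.39.

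Upk1a (ENSMUSG00000006313.5, chromosome 7, 30603092 to 30612847, minus strand) was scarce, with 8, 9 and 8 reads in WT and 30, 26 and 27 in PLD. Over the groups this is 25 against 83 reads, a ratio of 3.31 per total reads, and the log2 fold change was 1.80 ± 0.29. Per 100 Epcam reads the groups overlapped, with 0.119 to 0.209 in WT and 0.152 to 0.176 in PLD. Epcam itself rose by 1.61 ± 0.24 (edgeR adjusted p = 0.00107). Per 100 Krt19 reads the direction turned, with 0.0857, 0.182 and 0.127 Upk1a reads in WT replicates 1 to 3 and 0.0488, 0.0396 and 0.0456 in the PLD replicates, and the groups did not overlap. Cox6b1, a respiratory chain gene beside Upk1a, rose by 0.87 ± 0.10 (adjusted p = 3.58e-04), and Zbtb32 on the other side did not pass (adjusted p = 0.0737).

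Upk2 and Upk3a were not detected. Upk2, the partner of Upk1a, had 0 reads in all 6 libraries, which allows up to 0.180 to 0.190 CPM in a library. Upk3a, a bladder partner of Upk1b, had 1 read in PLD replicate 2 and 0 elsewhere, under the same floor. Neither Upk1a with Upk2 nor Upk1b with Upk3a was therefore detected as a pair at this depth.

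Upk3b (ENSMUSG00000042985.7, chromosome 5, 136038496 to 136046487, plus strand) was lower in PLD. It had 104, 130 and 166 reads in WT and 12, 71 and 68 in PLD. The groups did not overlap, and PLD replicate 1 was far below the other PLD libraries. The mean was 8.02 ± 2.08 CPM in WT and 3.08 ± 1.96 CPM in PLD (log2 fold change -1.37 ± 0.51). Per 100 Epcam reads the WT libraries had 1.56 to 3.02 reads of it and the PLD libraries 0.0607 to 0.445. Per 100 Wt1 reads it had 57.1, 59.6 and 102 in WT and 52.2, 245 and 252 in PLD, so the groups overlapped. The summed fibroblast, stellate and muscle markers were also lowest in PLD replicate 1, with 1850 CPM against 3850 and 4790. So were the endothelial (465 against 674 and 816), hepatocyte (1890 against 5740 and 6110) and macrophage sums (512 against 669 and 689). The cholangiocyte sum was highest there, with 20200 against 18400 and 16500 CPM. The part of any of these cell types in the Upk3b values was not tested. The related gene Upk3bl had at most 3 reads in a library.

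**Figure D4:**
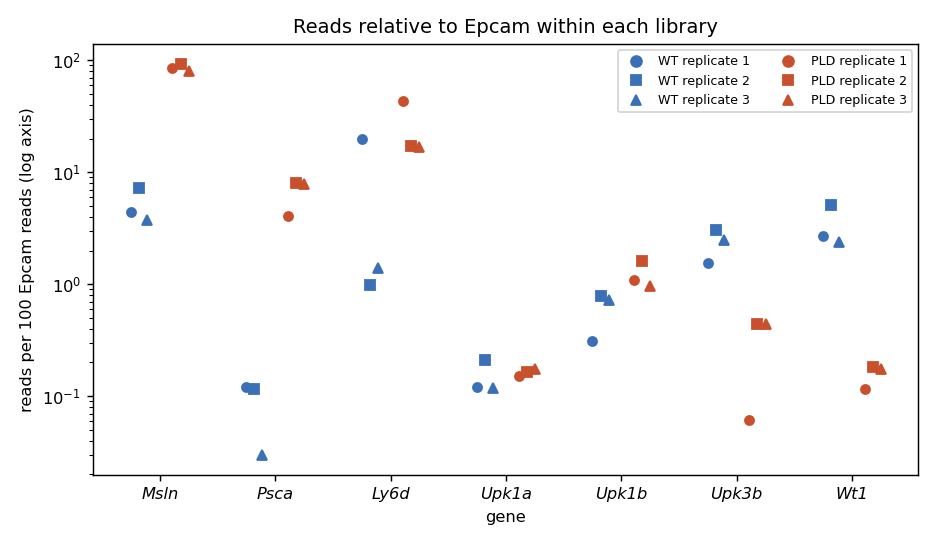
Reads per 100 Epcam reads (log axis) of the same 7 genes in each library, with WT in blue and PLD in orange and marker shapes for replicates. Msln and Psca lie apart between the groups, Upk1a and Ly6d overlap, and Upk3b and Wt1 are lower in every PLD library.

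Genes known from urothelium mostly rose. Of 18 listed, 13 were tested, 10 rose, 0 fell and 3 did not pass, with a median of 1.87. The share that passed was 76.9%, beside 55.4% over all genes (27.0% higher and 28.4% lower). The list was chosen with earlier results of these data known. Ovol1, an epithelial transcription factor gene (1.93 ± 0.13, edgeR adjusted p = 5.27e-05), Elf3 (1.99 ± 0.23), Klf5 (1.87 ± 0.25), Pparg (1.69 ± 0.36), Grhl3 (1.44 ± 0.46) and Foxa1 (0.57 ± 0.17) are regulators among those that rose. Cldn4, a tight junction gene, ranged from 22143 to 32982 reads over the WT libraries and from 111462 to 162796 over the PLD libraries, and rose by 2.32 ± 0.27. The water channel gene Aqp3 rose by 5.11 ± 0.62, with 3 to 5 reads in WT libraries and 72 to 203 in PLD libraries. It passed the count filter through the PLD libraries alone. The surface protease gene Tmprss2 rose by 2.21 ± 0.25. Krt20, the umbrella cell keratin gene, ranged from 19 to 69 WT reads and from 6683 to 18422 PLD reads (8.16 ± 0.71, adjusted p = 1.25e-04). Krt17 did not pass (-0.27 ± 0.12, adjusted p = 0.0921), nor did Gata3 (-0.49 ± 0.44, adjusted p = 0.362). The basal urothelial genes Trp63, Krt5 and Krt14 had at most 4 reads in any library, and Krt13 at most 8. Several of the genes that rose are also expressed by bile duct epithelium, whose listed markers rose for 9 of 13 and fell for 2 in the same libraries. The part of bile duct epithelium in these values was not tested.

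Genes of uroplakin transport, which carry the plaques to the cell surface or take them back, went both ways. Of 11 tested, 6 rose, 2 fell and 3 did not pass, with a median of 0.34. The share that passed was 72.7%, beside 55.4% over all genes (27.0% higher and 28.4% lower). Mal, a raft protein of apical sorting, rose by 2.81 ± 0.25 (edgeR adjusted p = 1.35e-04), the small GTPase gene Rab27b by 1.97 ± 0.13 (adjusted p = 5.19e-05), the motor gene Myo5b by 1.68 ± 0.17 and the SNARE gene Vamp8 by 1.16 ± 0.12. The SNARE gene Snap23 fell by 0.87 ± 0.11 and Sytl2 by 0.73 ± 0.11. Ehd1 (-0.15 ± 0.13) and Rab11a (-0.07 ± 0.12) did not pass. Snx31, a sorting gene of urothelium, had at most 3 reads in a library and was not tested.

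Other tetraspanin genes and Upk3bl made up a list of 10, of which 9 were tested, 4 rose, 1 fell and 4 did not pass (median 0.57). The 55.6% that passed were near the 55.4% over all genes. Tspan8 rose by 2.76 ± 0.14 and Cd9 by 1.10 ± 0.15. Tspan15 rose from 36.0 ± 11.3 to 234 ± 10.2 CPM (edgeR adjusted p = 9.03e-05), and Tspan13 fell from 42.3 ± 6.33 to 17.6 ± 6.46 CPM (adjusted p = 0.00441). Cd81 (-0.08 ± 0.12) and Cd82 (0.20 ± 0.11) did not pass. The log2 fold change of Upk1b, 2.65, was close to that of Tspan8.

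Of 30 other surface antigens that are drug targets in epithelial tumours, 28 were tested, 13 rose, 3 fell and 12 did not pass, with a median of 0.95. The 57.1% that passed were near the 55.4% over all genes. Cdh17, an intestinal cadherin gene (3.33 ± 0.31), the phosphate transporter gene Slc34a2 (2.79 ± 0.13) and the immune checkpoint gene Cd276 (1.31 ± 0.14) rose. Gpc3 (-2.22 ± 0.26), Axl (-1.60 ± 0.20) and Ror1 (-1.08 ± 0.24) fell. Egfr (0.49 ± 0.24) and Alcam (-0.14 ± 0.13) did not pass. Without both libraries numbered 1, 20 genes of this list rose and 3 fell. Ceacam1 had 2637 reads in WT replicate 1 against 604 and 773, and 4686 in PLD replicate 1 against 1060 and 1336, a pattern like that of Ly6d.

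Msln, Psca and Ly6d need a GPI anchor to reach the cell surface. Of 28 tested genes that build, attach or remodel it, 11 rose, 2 fell and 15 did not pass, with a median of 0.26, and the 46.4% that passed were below the 55.4% over all genes. The remodelling genes Pgap1 (1.40 ± 0.23) and Pgap3 (1.31 ± 0.17, edgeR adjusted p = 5.75e-04) and the transamidase subunit genes Pigt (0.63 ± 0.09) and Pigu (0.54 ± 0.10) rose. Pigk, the catalytic subunit gene of the transamidase, fell by 0.33 ± 0.10 (adjusted p = 0.0296), and Pigz by 1.79 ± 0.40. Piga (0.66 ± 0.25, adjusted p = 0.0516) and Pigq (-0.09 ± 0.10) did not pass. The number that rose was 7 without WT replicate 3, and the number that fell was 1 without PLD replicate 3, WT replicate 2 or WT replicate 3. These changes were all smaller than the differences in Msln and Psca.

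Levels of different genes were compared as RPKM, the CPM divided by the length of the gene model in kilobases. In PLD, Ly6d (406 ± 329) and Msln (305 ± 68.5) were highest, and their libraries overlapped. Psca followed with 80.0 ± 13.9, Upk1b with 6.30 ± 1.80, Upk1a with 1.24 ± 0.188, Upk3b with 0.873 ± 0.554 and Wt1 with 0.268 ± 0.0158 RPKM. Upk3b overlapped both neighbours in that order. PLD replicates 2 and 3, with 1.227 and 1.157 RPKM, reached the Upk1a values, and PLD replicate 1, with 0.234 RPKM, fell below those of Wt1. In WT the order was Ly6d (38.6 ± 57.1), Msln (5.60 ± 0.459), Upk3b (2.27 ± 0.59), Wt1 (1.81 ± 0.239), Upk1b (1.00 ± 0.429), Upk1a (0.351 ± 0.0208) and Psca (0.345 ± 0.203). There Ly6d overlapped Msln, Upk3b overlapped Wt1, and Upk1a overlapped Psca. Msln ranked 6976 of the tested genes per length in WT and 100 in PLD, and Psca 14245 and 539. The 3 GPI-anchored antigens were thus at the 96.5 percentile of tested genes or above in PLD, while the uroplakin genes and Wt1 stayed at the 58.2 percentile or below.

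The genes with profiles most like those of Msln, Psca and Wt1 were sought among 9979 tested genes whose log2 CPM averaged 3 or more. Likeness was the root mean square difference of log2 CPM over the 6 libraries, each gene centred on its mean. Nearest to Msln were the ligand gene Wnt7a (0.33), Scel, a cornified envelope protein gene (0.40) and the proton pump subunit gene Atp6v0a4 (0.44). The nearest to Psca were the annexin gene Anxa8 (0.70), the aldo-keto reductase gene Akr1b7 (0.73), Krt20 (0.89) and Atp6v0a4 (1.14), each farther from Psca than these 3 genes from Msln. Nearest to Wt1 were the muscle tropomyosin gene Tpm2 (0.08), Lims2 (0.11), Abca8a (0.11), Mustn1 (0.14) and the endothelin receptor gene Ednrb (0.14). The 6 libraries form only 2 groups, so these profiles share the group difference.

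The same measure was applied to 3 further genes after their values were seen. Nearest to Ly6d were Rasgrf1 (0.50), the pseudogene Rpl3-ps1 (0.51), Duoxa2, a maturation factor of the oxidase DUOX2 (0.56), Trim15 (0.73) and Fam83e (0.80). Duoxa2 had 23.4 CPM in WT replicate 1 against 0.236 and 1.24, and Rasgrf1 12.7 against 0.649 and 0.432. Nearest to Upk3b were Cyp4f14 (0.19), the collagen cross-linking gene Loxl1 (0.22), the growth factor gene Csf1 (0.23), H2-Q5 (0.24) and Rcn3 (0.24). Loxl1 had 20.2 CPM in PLD replicate 1 against 61.2 and 73.4, so it was lowest in the same PLD library as Upk3b. Nearest to Upk1b were Syt12 (0.32), Egln3 (0.36), Tspan8 (0.37), Rab11fip4 (0.41) and Enpep (0.42).

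**Figure D5:**
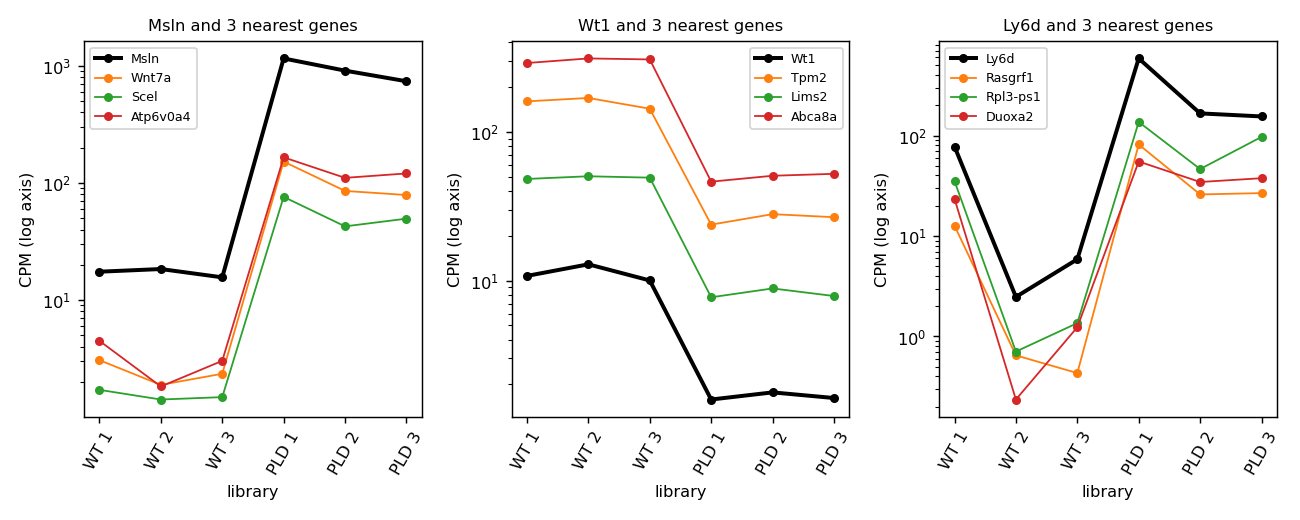
CPM (log axis) of Msln, Wt1 and Ly6d (thick black) and the 3 genes nearest to each in each library, where lines only join the values of 1 gene. Msln and its nearest genes differ mainly between the groups, Wt1 and its nearest genes are lower in PLD, and the Ly6d panel shows WT replicate 1 above the other WT libraries for all 4 genes.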

How the data were processed

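Each library has a deposited table of unnormalised read counts by gene. Per the file headers, counting used featureCounts 1.6.0 and GENCODE vM25 gene models (mm10), and set no option for strand or multi-mapping reads. STAR 2.7.4a, SAMtools 1.12 and DESeq2 1.26.0 are named per the submitters' processing notes. Symbols came from GENCODE vM21 for 55141 of 55401 IDs.

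The members and lists were chosen with earlier results of these data known. In edgeR 4.0.16 under R 4.3.3, the default low-count filter (filterByExpr, by group) left 15334 genes, libraries were scaled by TMM (0.922 to 1.04), and PLD was set against WT in a quasi-likelihood F test with no covariate. Benjamini-Hochberg adjustment ran over all tested genes, with a threshold of 0.05. The SE is the log2 fold change divided by the square root of F. The 9 members have no p-value. Of the other genes named, Lypd8, Lypd5, Spaca4, Ly6c2 and Aqp3 passed the count filter through the PLD libraries alone. Rspo1, Muc16, Sctr and Pigz passed it through the WT libraries alone. The direction of these genes was fixed by the filter. A rule named, per list, at most 4 genes past the threshold by smallest p and 2 not past it by highest level, and others are examples chosen after their values were seen.

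Libraries of a group differed by more than sampling noise (chi-square per degree of freedom 9.68 to 63.9, genes with at least 50 reads in the pair). The script was tested on simulated data. Floors cover counting error only. Alternatives were RLE and upper-quartile factors, DESeq2 1.42.0, no or a stricter filter, a prior count of 2, a replicate block, dropping each library in turn and, chosen after seeing the data, dropping both libraries numbered 1. Some genes that the rule names are not reported here.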

Additional observations from a re-analysis of the deposited data

How the results depend on the processing

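The 7 tested members kept their direction under every alternative that was run, and 1 of them, Ly6d, moved by more than 1.5 times on the linear scale when a single library was left out. Over all genes, leaving out 1 library gave 3173 to 4183 higher and 3626 to 4562 lower genes. Same-numbered libraries had correlations of deviations from the group mean of 0.156, 0.0363 and 0.0613. PLD replicate 1 correlated best with WT replicate 1. PLD replicate 2 correlated best with WT replicate 3 (0.122) and PLD replicate 3 with WT replicate 2 (0.099). With 3 libraries in each group, these values cannot decide whether the replicate numbers pair the samples. With the replicate block, 3920 genes were higher and 4242 lower, and the log2 fold change of Ly6d was 4.39. With a filter of 1 CPM in 3 libraries, which tests fewer genes, 5 LY6 family genes rose. Without a filter on low counts, 1 GPI anchor gene fell. Leaving out 1 library gave 7 to 11 higher and 1 to 2 lower GPI anchor genes. Without both libraries numbered 1, 20 tumour surface antigens rose, and the cause was not tested. Shh turned positive with the block (1.86, adjusted p = 0.3) and without both libraries numbered 1 (6.59). With 1 library left out, Shh ranged from -0.67 to 6.88 (without WT replicate 1), Rab11a from -0.16 to 0.025, Cd81 from -0.13 to 0.00179 and Alcam from -0.22 to 0.00185, so these genes, none of which passed the test with all libraries, changed sign. Upk2 and Upk3a stayed at or under 1 read in a library, so depth limits any statement on them.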
